A study of Mus musculus with 25 samples.

Results

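The genes described here mark the inhibitory interneurons of the forebrain and the synthesis of their transmitter. They were the 10 genes Sst, Vip, Npy, Cort, Crh, Pvalb, Calb2, Reln, Gad1 and Gad2, taken by their Ensembl identifiers from a table of 47729 genes, and all 10 passed the filter on low counts. They were named by function and not for how they moved. Interneurons release GABA, which the glutamate decarboxylases encoded by Gad1 and Gad2 make from glutamate. Most interneurons of cortex and hippocampus also make a neuropeptide (somatostatin, vasoactive intestinal peptide, neuropeptide Y, cortistatin or corticotropin-releasing hormone), a calcium-binding protein (parvalbumin or calretinin, the product of Calb2) or the secreted matrix protein reelin, and these products define the classical interneuron classes. Many of these genes are also active outside the cortex, among others in striatum, hypothalamus, thalamus and olfactory bulb.

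Brain hemispheres of male C57BL/6 mice, an inbred strain, were profiled by RNA sequencing of total RNA, with no treatment given in the labels. There were 25 libraries, 5 each at 2, 9, 15, 24 and 30 months of age. The question was how the brain transcriptome differs between the 5 ages. The labels do not say how hemispheres relate to animals, so p-values measure the spread between these libraries. A hemisphere mixes many regions and cell types, and in such bulk RNA fewer cells of a type and less RNA per cell cannot be told apart.

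Libraries held 17800113 to 31261121 counts assigned to genes. Levels are CPM, counts scaled to a common library total after TMM normalization. In how counts depended on the GC content of transcripts, 4 of the 5 libraries of 30 months stood far from all others, and the younger ages differed less. The GC gap is the median log2 ratio to the mean of the younger libraries over the tenth of protein-coding genes richest in GC, minus that over the tenth poorest. It lay between -0.25 and 0.15 in the 20 younger libraries and was 0.13 in replicate 1 of 30 months. Among the younger ages it was -0.25 to -0.08 at 15 months and 0.06 to 0.15 at 24 months, without overlap. In replicates 2 to 5 of 30 months it was 1.08, 1.41, 1.30 and 1.97. The 4 younger ages were therefore tested in a fit of their own 20 libraries, and the called differences of 30 months from 2 and 24 months are given with and without a correction for GC content. Neurons were well represented, with summed pan-neuronal markers of 6018 to 7658 CPM over all 25 libraries.

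Per kilobase of exon, averaged over the 20 younger libraries, Sst had the highest level of the 10, 132.4 CPM per kilobase. Gad2 with 64.85, Gad1 with 64.3 and Npy with 59.9 CPM per kilobase formed a group whose single libraries overlapped. Pvalb followed with 50.38 CPM per kilobase, its highest libraries above the lowest of Npy, and Calb2 with 36.0 CPM per kilobase, overlapping Pvalb at the edge. Vip with 9.746 and Reln with 5.669 CPM per kilobase were separate from their neighbours in every library. Crh with 2.792 and Cort with 2.335 CPM per kilobase were the lowest, and their libraries overlapped. Cort, the gene of the somatostatin-related peptide cortistatin, rested on 21 to 56 counts per younger library, which limits its precision, and Crh on 61 to 112.

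In GENCODE M21 on GRCm38 all 10 were protein-coding genes. Sst (ENSMUSG00000004366, chr16:23889573-23890958, minus strand), Npy (ENSMUSG00000029819, chr6:49822710-49829507, plus strand), Cort (ENSMUSG00000028971, chr4:149125034-149126763, minus strand), Vip (ENSMUSG00000019772, chr10:5639218-5647617, plus strand) and Crh (ENSMUSG00000049796, chr3:19693401-19695396, minus strand) encode the peptides. Pvalb (ENSMUSG00000005716, chr15:78191114-78206400) and Calb2 (ENSMUSG00000003657, chr8:110137502-110168210) lie on minus strands, as does Reln (ENSMUSG00000042453, chr5:21884454-22344702). Gad1 (ENSMUSG00000070880, chr2:70553072-70602014) and Gad2 (ENSMUSG00000026787, chr2:22622205-22693874) lie on the plus strand of the same chromosome. Reln shares 246 exon bases with the antisense gene Gm10475, and whether the counting used strand is not given in the sources used here. The antisense gene Gad1os overlaps the span of Gad1 without sharing exon bases.

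Promoter sequences are shown for the peptide genes Sst, Npy and Cort, whose levels moved in the same direction between 15 and 24 months, and for Vip, whose level did not pass the test there. Somatostatin and vasoactive intestinal peptide are textbook targets of the factor CREB, which binds the cAMP response element TGACGTCA or its shorter form TGACG. Both were searched on both strands, with the TATA box TATAAA, in the 250 bases before each RefSeq start (GRCm38.p6). Capitals mark matches, and all sequences run in the direction of transcription. For Sst only the 30 bases around its match (chr16:23890874-23890903, minus strand) are shown. The windows of Npy (chr6:49822460-49822709, plus strand), Cort (chr4:149126764-149127013, minus strand) and Vip (chr10:5638968-5639217, plus strand) are shown whole.
Sst: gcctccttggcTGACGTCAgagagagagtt
Npy: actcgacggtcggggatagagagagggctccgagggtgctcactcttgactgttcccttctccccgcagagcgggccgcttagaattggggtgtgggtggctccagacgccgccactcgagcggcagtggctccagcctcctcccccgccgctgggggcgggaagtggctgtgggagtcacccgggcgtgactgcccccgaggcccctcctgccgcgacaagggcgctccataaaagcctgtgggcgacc
Cort: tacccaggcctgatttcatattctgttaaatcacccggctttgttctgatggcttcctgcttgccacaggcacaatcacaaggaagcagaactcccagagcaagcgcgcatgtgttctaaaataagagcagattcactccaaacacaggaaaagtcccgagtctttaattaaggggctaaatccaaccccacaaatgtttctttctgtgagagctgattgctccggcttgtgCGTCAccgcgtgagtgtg
Vip: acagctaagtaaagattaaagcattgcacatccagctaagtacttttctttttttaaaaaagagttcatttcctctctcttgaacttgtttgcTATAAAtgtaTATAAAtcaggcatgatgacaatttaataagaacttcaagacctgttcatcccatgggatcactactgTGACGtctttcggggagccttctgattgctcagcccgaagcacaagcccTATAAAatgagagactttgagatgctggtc
The full element TGACGTCA, which contains the shorter form on both strands, stood in the Sst promoter with its first base at -48 from the start. It occurred in 1.55% of 32851 promoters of this length. The Vip promoter held TGACG at -79 and TATAAA at -157, -147 and -30, and the Cort promoter held the shorter form on its other strand at -18. The shorter form occurred in 17.8% and TATAAA in 12.4% of all promoters. The Npy window held none of the 3 motifs. Thus the 3 peptide genes that rose between 15 and 24 months did not share a motif searched here. Their calls in that interval were lost with the GC correction, as given below. Of 9 promoters found for 8 of the 10 genes, 4 held the shorter form.

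**Figure D1:**
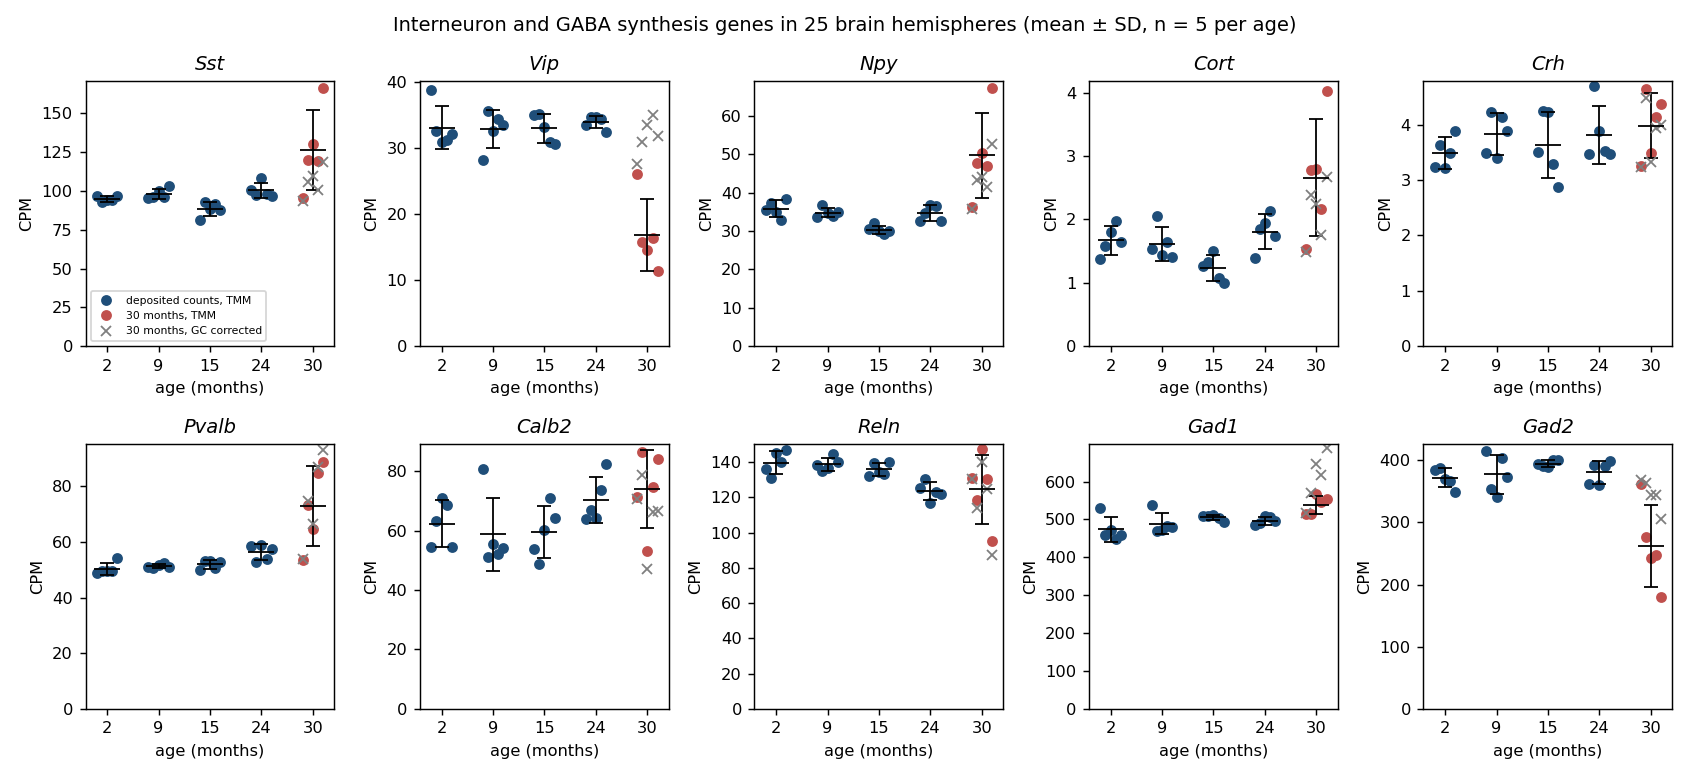
CPM of each of the 10 genes (vertical axes, from 0) against age in months, 1 point per library, with the mean and SD of 5 libraries as bars. Grey crosses give the 30 month libraries after GC correction. The highest mean at 2 to 24 months exceeds the lowest by a factor of 1.03 (Vip) to 1.47 (Cort). The 30 month points spread widely for some genes, as for Sst with 95.5 to 166.6 CPM, and less for Gad1, with 513.1 to 567.3 CPM.

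Across 2, 9, 15 and 24 months, 5 of the 10 genes passed the test for any difference, which 45.3% of the 17472 genes tested passed, so the share among these genes was near that of all genes. They were Reln (adjusted p = 0.000165), Npy (0.000632), Sst (0.000951), Pvalb (0.00313) and Cort (0.035), by edgeR's quasi-likelihood test adjusted over all genes. Vip, Crh, Calb2, Gad1 and Gad2 did not pass (adjusted p of 0.871, 0.709, 0.325, 0.127 and 0.308). The highest age mean exceeded the lowest by a factor of 1.03 (Vip) to 1.47 (Cort). In a fit in which all 25 libraries shared one estimate of the spread, none of the 10 passed this edgeR test or any test between 2 younger ages, with 0 to 2 of them at an unadjusted p under 0.05 in each test. The call of Cort was lost without any 1 of 7 of the 20 libraries and with DESeq2.

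Sst, which encodes somatostatin, marks interneurons that contact the dendrites of other neurons. Sst stood at 96.45, 92.59, 94.45, 94.25 and 96.56 CPM in the 5 libraries of 2 months and at 95.35, 96.29, 99.77, 96.12 and 103.1 CPM in those of 9 months. At 15 months it stood at 81.38, 93.2, 88.51, 91.56 and 87.52 CPM, and at 24 months at 100.9, 97.71, 108.6, 97.84 and 96.83 CPM. All libraries of 15 months thus lay below all of 9 months and all of 24 months, with an overlap only with 2 months. Sst fell from 9 to 15 months (log2 -0.143 ± 0.035 SE, adjusted p = 0.00803) and rose from 15 to 24 months (0.177 ± 0.035, adjusted p = 0.000516). The difference of 15 from 2 months was -0.094 ± 0.035 (adjusted p = 0.0748). That value passed without replicate 2 of 15 months (-0.114, adjusted p = 0.0493). All libraries of 24 months lay above all of 2 months, with a difference of 0.082 that did not pass (adjusted p = 0.0875).

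Npy encodes neuropeptide Y, an inhibitory peptide found in part of the Sst cells and in neurogliaform cells. Npy stood at 35.62, 37.26, 34.94, 32.9 and 38.46 CPM at 2 months and at 33.66, 36.67, 34.64, 33.94 and 35.05 CPM at 9 months. At 15 months it stood at 30.49, 32.13, 29.98, 29.11 and 29.91 CPM, and at 24 months at 32.68, 34.67, 36.81, 36.57 and 32.58 CPM. Every library of 15 months was below every library of the other 3 younger ages. Npy fell by 15.1% from 2 to 15 months (log2 -0.235 ± 0.046 SE, adjusted p = 0.000891) and by 12.5% from 9 to 15 months (-0.193 ± 0.045, adjusted p = 0.00624). It rose from 15 to 24 months by 13.8% (0.187 ± 0.045, adjusted p = 0.00315).

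Cort encodes cortistatin, a peptide close to somatostatin that binds its receptors. At 15 months Cort stood at 1.261, 1.334, 1.501, 1.081 and 0.9892 CPM, and at 24 months at 1.385, 1.852, 1.938, 2.133 and 1.732 CPM. The ages overlapped, with the lowest library of 24 months below the highest of 15 months. Cort rose between them (log2 0.533 ± 0.157 SE, adjusted p = 0.0132). Its differences of 15 from 2 months (-0.428 ± 0.163, adjusted p = 0.0812) and from 9 months (-0.372 ± 0.161, adjusted p = 0.139) did not pass.

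The GC gap was also lowest at 15 months, with -0.25 to -0.08 in those libraries and 0.06 to 0.15 in the 24 month libraries. Sst, Npy and Cort have GC contents of 56.0%, 53.7% and 58.5%, the 3 highest of the 10. Calb2 follows closely with 53.5%. Its means were 62.39, 58.76, 59.51 and 70.32 CPM at 2, 9, 15 and 24 months, and it was not called between these ages. The 9 month mean includes replicate 1 at 80.7 CPM, with the other libraries at 51.03 to 55.53 CPM. With the GC correction, the difference of 24 from 15 months was 0.083 for Sst, 0.125 for Npy and 0.416 for Cort (adjusted p of 0.0775, 0.0668 and 0.0779), so these 3 calls were lost. The correction also ended the call of Sst between 9 and 15 months (-0.092, adjusted p = 0.0809), and that of any difference for Sst (0.0549) and Cort (0.136). Npy at 15 months remained lower than at 2 months (-0.197, adjusted p = 0.00609) and at 9 months (-0.16, adjusted p = 0.0363). The hypothalamus, which also makes somatostatin and neuropeptide Y, was followed with 13 markers. Their sum was 35.8 to 60.68 CPM at 2 months, 39.7 to 56.67 CPM at 9 months and 34.56 to 52.85 CPM at 15 months, which overlapped, and 57.12 to 64.98 CPM at 24 months. Between 24 and 15 months 5 of the 13 were higher and 1 lower (24.1% of all genes called), and 4 were higher and 0 lower between 24 and 2 months (22.8%). Between 15 and 2 months 1 was higher (13.1%), and between 15 and 9 months edgeR called 0, with 2 at an unadjusted p under 0.05. The sum was thus highest at 24 months, and no marker passed as lower at 15 than at 2 or 9 months. The part of these markers in the rise of the 3 peptides from 15 to 24 months was not tested.

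Vip and Crh showed no change across the younger ages that passed the test. Vip marks interneurons that inhibit other interneurons, and Crh encodes the peptide that starts the hypothalamic stress response and is also made by cortical interneurons. Vip stood at 28.14 to 38.7 CPM over the 20 younger libraries, with age means of 33.03, 32.78, 32.93 and 33.88 CPM. Its difference of 24 from 2 months was 0.038, with a 95% interval of -0.084 to 0.16 on the log2 scale. Crh stood at 2.873 to 4.694 CPM, and its difference of 24 from 2 months was 0.127, with an interval of -0.111 to 0.365.

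Pvalb encodes parvalbumin, the calcium buffer of fast-spiking basket and chandelier cells and of cerebellar Purkinje cells. Pvalb stood at 48.96, 49.62, 49.49, 49.38 and 54.31 CPM at 2 months and at 50.96, 50.56, 51.62, 52.53 and 50.92 CPM at 9 months. At 15 months it stood at 49.96, 53.19, 53.18, 50.44 and 52.61 CPM, and at 24 months at 58.44, 52.67, 58.92, 53.73 and 57.32 CPM. All libraries of 24 months were above all of 9 months, and 4 of 5 libraries of 2 months lay below all of 24 months. Pvalb was higher at 24 than at 2 months by 11.9% (log2 0.162 ± 0.037 SE, adjusted p = 0.00187) and than at 9 months by 9.71% (0.134 ± 0.036, adjusted p = 0.00615). The rise from 15 to 24 months (0.112 ± 0.037, adjusted p = 0.0245) was lost without replicate 1 or 4 of 15 months or replicate 1, 3 or 5 of 24 months (adjusted p of 0.0521 to 0.0807). A linear trend gave 0.159 ± 0.038 over the 22 months from 2 to 24 months (adjusted p = 0.00499). With the GC correction the difference of 24 from 2 months was 0.163 (adjusted p = 0.00149). Cerebellum and hindbrain markers summed to 954.7 to 1063 CPM at 24 months and to 932.5 to 1064 CPM at 2 months. Most of this sum was 1 gene, Itpr1, with 865 to 956 CPM at 24 months and 827 to 969 CPM at 2 months. The sum therefore says little about the other markers. Of the 7 of 11 that were tested, 1 was higher (Zic2, 0.203, adjusted p = 0.0246) and 0 lower between 24 and 2 months, against 22.8% of all genes called. The Purkinje cell gene Pcp2 was at 0.0692 to 0.242 CPM at 24 months and 0.169 to 0.996 CPM at 2 months. The granule cell gene Gabra6 reached 0.218 CPM at 24 months and 4.37 CPM at 2 months. Cbln3, also a granule cell gene, was at 0.261 to 0.466 CPM at 24 months and 0.169 to 5.97 CPM at 2 months. The part of cerebellar RNA in the values of Pvalb was not tested.

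Reln, the gene of the matrix glycoprotein reelin, went the other way. In the adult forebrain interneurons are among the sources of reelin, and many of these interneurons lie in the outermost cortical layer. Reln stood at 135.9, 131.1, 145.0, 140.0 and 147.1 CPM at 2 months and at 138.2, 134.9, 136.5, 144.7 and 140.0 CPM at 9 months. At 15 months it stood at 132.2, 139.8, 134.7, 133.2 and 140.0 CPM, and at 24 months at 125.5, 130.7, 116.9, 123.1 and 121.7 CPM. Every library of 24 months was below every library of 2, 9 and 15 months. Reln fell by 11.7% from 2 months (log2 -0.179 ± 0.032 SE, adjusted p = 0.000167), from 9 months (-0.168 ± 0.032, adjusted p = 0.000247) and from 15 months (-0.143 ± 0.032, adjusted p = 0.00179). These values were -0.189, -0.179 and -0.162 with the GC correction and passed. The trend over 22 months was -0.178 ± 0.037 (adjusted p = 0.0017). Markers of Cajal-Retzius cells, the developmental source of reelin, summed to 18.11 to 22.25 CPM at 24 months and 14.76 to 20.53 CPM at 2 months. By edgeR 0 of these 6 passed the test of 24 with 2 months, and 0 had an unadjusted p under 0.05. Olfactory bulb markers summed to 230.9 to 252.2 CPM at 24 months, the age with their lowest mean, and to 239.3 to 305.3 CPM at 2 months. Of the 7 tested, edgeR called 0 between 24 and 2 months, with 1 at an unadjusted p under 0.05. The part of the mix of regions in the values of Reln was not tested.

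Calb2, the gene of calretinin, is expressed in part of the Vip cells and also in thalamic and olfactory bulb neurons. It varied most between libraries of the same age among the 6 genes above 30 CPM per kilobase, with a coefficient of variation of 11.2% to 21.1%. Calb2 stood at 54.43, 63.09, 71.07, 68.78 and 54.57 CPM at 2 months and at 80.7, 51.03, 55.53, 52.25 and 54.28 CPM at 9 months. Replicate 1 of 9 months stood above the rest of its age. The difference of 24 from 2 months was 0.17, with a 95% interval of -0.115 to 0.454. That of 24 from 9 months was 0.254 (adjusted p = 0.166), and it passed without replicate 1 of 9 months (0.396, adjusted p = 0.0155).

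The GABA-synthesizing enzymes showed no change across the younger ages that passed the test. Gad1 encodes GAD67, the decarboxylase found throughout the cell, and Gad2 encodes GAD65, the form attached to synaptic vesicles. Gad1 stood at 530.7, 459.1, 472.2, 448.7 and 458.6 CPM at 2 months and at 485.3, 489.3, 509.8, 505.6 and 494.5 CPM at 24 months. Replicate 1 of 2 months was higher than any library of 24 months, and the other 4 were lower than all. The difference was 0.069 ± 0.036 SE (adjusted p = 0.181). Without replicate 1 of 2 months, Gad1 was higher at 9 months (0.0903, adjusted p = 0.0441), 15 months (0.14, adjusted p = 0.00242) and 24 months (0.11, adjusted p = 0.00839) than at 2 months. Without replicate 1 of 9 months it passed at 15 with 2 months (0.0971, adjusted p = 0.0327). The summed level of 11 striatal spiny neuron markers in replicate 1 of 2 months was 1570 CPM, the highest of the 20 younger libraries, and its part in these values was not tested.

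Gad2 stood at 384.1, 387.4, 369.9, 367.1 and 349.2 CPM at 2 months and at 394.4, 390.1, 389.2, 399.8 and 400.1 CPM at 15 months. All libraries of 15 months were above all of 2 months, by small steps. The difference was 0.092 ± 0.045 SE (adjusted p = 0.188). It passed where only these 2 ages entered the fit (0.0927, adjusted p = 0.0218). At 24 months Gad2 was 0.036 above 2 months, with a 95% interval of -0.057 to 0.128.

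By comparison, edgeR called 0 of the 10 genes between 9 and 2 months, with 0 at an unadjusted p under 0.05, and DESeq2 and limma-voom called 0 as well; 14.9% of all genes were called. Between 15 and 2 months 1 gene was called (13.1% of all genes), between 15 and 9 months 2 (10.9%), and between 24 and 15 months 5 (24.1%). Between 24 and 2 months 2 were called (22.8%), between 24 and 9 months 2 (30.8%), and in the linear trend 2 (16.8%). The median log2 difference of the 10 genes between 24 and 2 months was 0.076, and that of all genes was 0.0024. With the GC correction 1 gene was called between 15 and 2 months (8.24% of all genes), 1 between 15 and 9 months (5.55%), 2 between 24 and 15 months (12.2%) and 3 for any difference (38.2%). The 2 genes called between 24 and 2 months (22.8%), 24 and 9 months (30.7%) and in the trend (19.4%) were again Pvalb and Reln, and between 9 and 2 months edgeR then called 0, with 0 at an unadjusted p under 0.05 (16.1% of all genes).

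**Figure D2:**
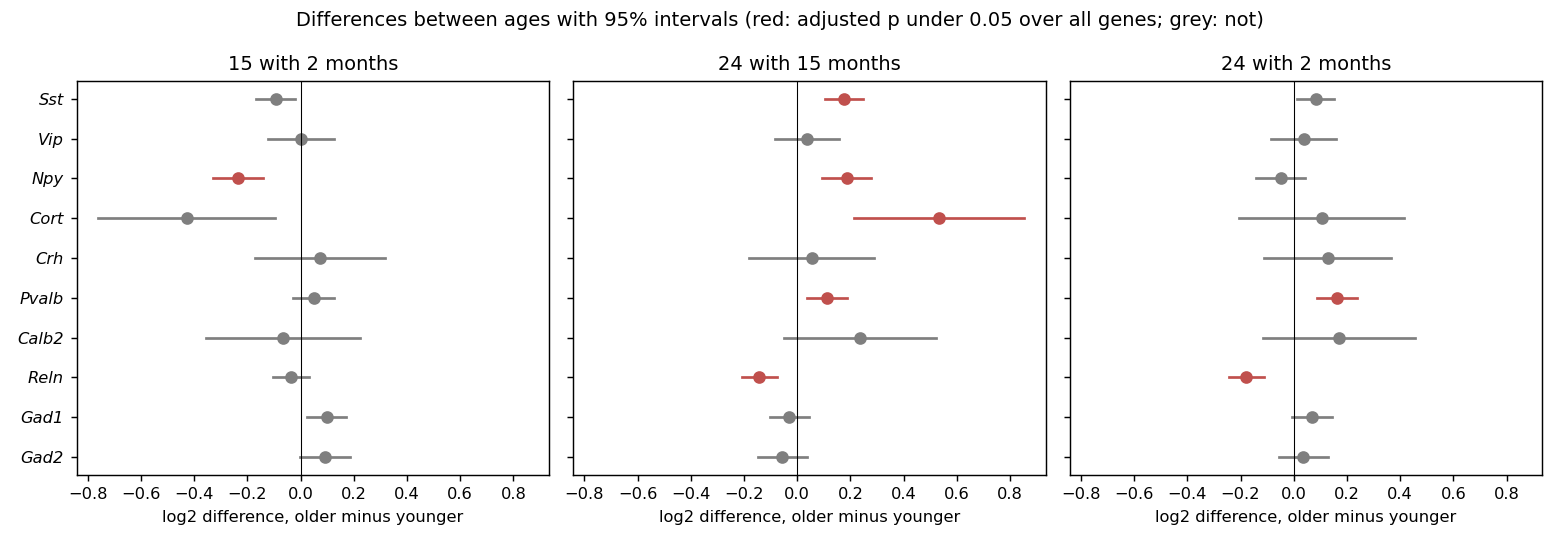
Log2 differences between ages (horizontal axis, older minus younger) of the 10 genes with 95% intervals, from the fit of the 20 younger libraries. Red marks an adjusted p under 0.05. Npy, Sst and Cort lie left of 0 at 15 with 2 months and right of 0 at 24 with 15 months, and Pvalb and Reln stand apart in opposite directions at 24 with 2 months.

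At 30 months the 10 genes spread apart. Between 30 and 2 months 8 of 10 were called, 5 higher (28.5% of all genes) and 3 lower (29.5%), as were 58.0% of the 17799 genes tested in the fit of all 25 libraries. Between 30 and 24 months 7 were called, 5 higher (25.5%) and 2 lower (29.0%), against 54.5% of all genes. The 5 libraries did not move alike. Vip stood at 26.01 CPM in replicate 1 and at 15.78, 14.46, 16.3 and 11.37 CPM in replicates 2 to 5, all below the lowest younger library. Gad2 stood at 361.2 CPM in replicate 1, within the younger range, and at 275.9, 242.6, 246.9 and 180.0 CPM in the others. The high end was Cort, with 1.54 CPM in replicate 1 and 2.773, 2.791, 2.159 and 4.031 CPM in the others. Sst stood at 95.5 CPM in replicate 1 and at 120.2, 130.5, 119.4 and 166.6 CPM in the others, and Npy at 36.33 CPM and at 47.67, 50.35, 46.98 and 67.22 CPM.

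These shifts followed GC content from gene to gene. Vip, with 38.7% GC, was the lowest of the 10 in each of the 5 libraries relative to the younger mean, and Gad2 has the next lowest GC content, 44.1%. Cort, with 58.5%, was the highest in replicates 2, 3 and 5. Across the 10 genes, Pearson's r between GC content and the log2 ratio to the younger mean was 0.9, 0.87, 0.82 and 0.89 in replicates 2 to 5 and 0.6 in replicate 1, as a description over genes that share each library.

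**Figure D3:**
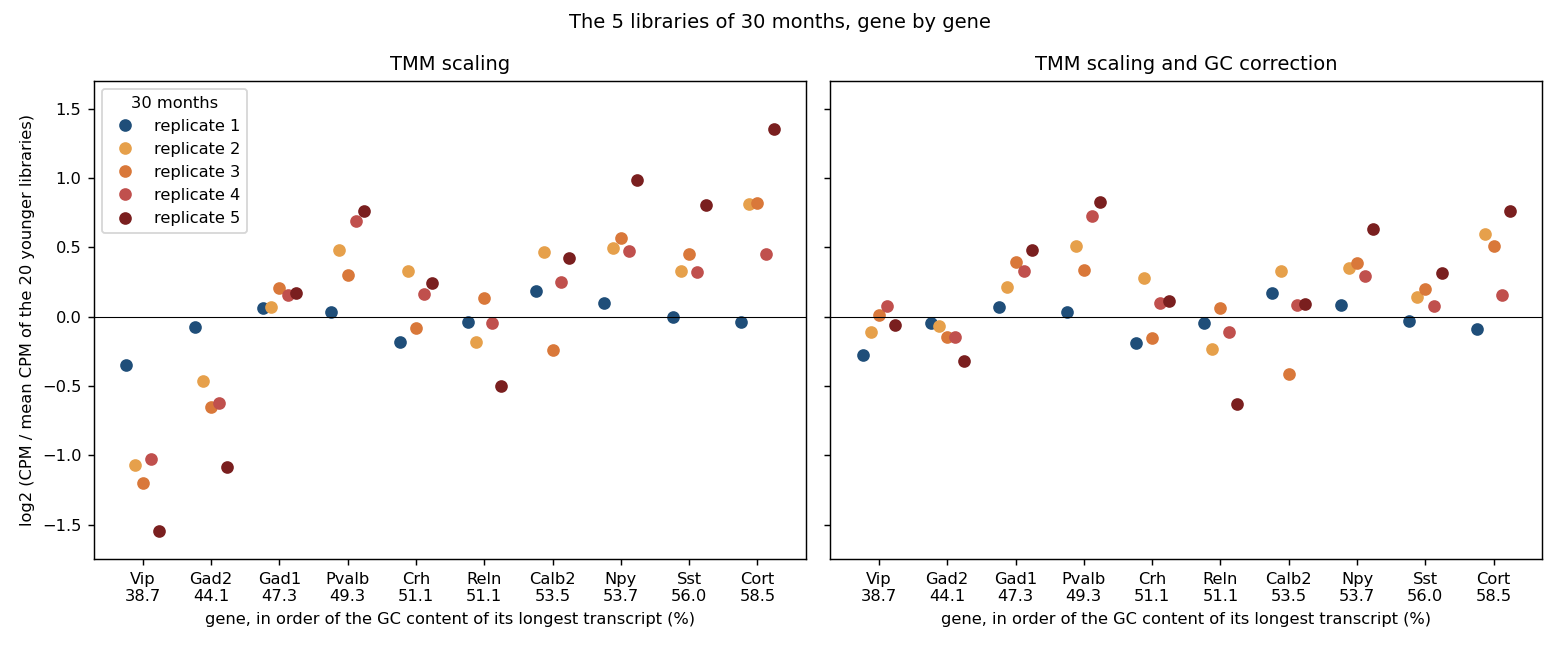
Log2 ratio of each 30 month library to the mean of the 20 younger libraries (vertical axis) for the 10 genes, placed in order of GC content (horizontal axis), before (left) and after (right) GC correction. On the left the points of replicates 2 to 5 run from Vip, as low as -1.54, to Cort, as high as 1.35, while those of replicate 1 stay between -0.35 and 0.19.

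After the GC correction 5 of 10 genes were called between 30 and 2 months (45.6% of all genes) and 4 between 30 and 24 months (41.2%). Vip came to 27.46, 30.79, 33.42, 34.95 and 31.8 corrected CPM, and its difference from 2 months changed from -0.974 (adjusted p = 4.03e-06) to -0.069 (adjusted p = 0.435). Its difference from 24 months changed from -1.011 (adjusted p = 5.6e-06) to -0.157 (adjusted p = 0.0659). Gad2 changed from -0.508 (adjusted p = 0.00025) to -0.11 (adjusted p = 0.0735) against 2 months, and from -0.543 (0.000192) to -0.171 (0.00728) against 24 months. Cort changed from 0.662 (0.00439) to 0.353 (0.0721) against 2 months, and from 0.555 (0.0129) to 0.284 (0.143) against 24 months. Sst changed from 0.414 (adjusted p = 0.000245) to 0.161 ± 0.047 SE (adjusted p = 0.00615) against 2 months, and from 0.333 (0.00205) to 0.114 ± 0.046 (0.0504) against 24 months, where its call was lost. Npy was called with and without the correction, at 0.471 (adjusted p = 2e-04) and 0.285 ± 0.068 with it (0.00118) against 2 months, and at 0.52 (0.000121) and 0.357 ± 0.067 (0.000156) against 24 months.

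Pvalb and Gad1 rose at 30 months with and without the correction. Pvalb stood at 53.65, 73.3, 64.61, 84.65 and 88.88 CPM, and 4 of these libraries were above every younger library. Its difference from 2 months was 0.536 ± 0.085 SE (adjusted p = 2.25e-05) and 0.569 ± 0.088 (adjusted p = 1.53e-05) with the correction, and its difference from 24 months 0.376 (0.000757) and 0.408 (0.000577). Cerebellar transcripts were high in replicate 4: the granule cell gene Cbln3 was at 26.3 CPM there and the Purkinje cell gene Pcp2 at 5.37 CPM, against at most 5.97 and 1.07 CPM in the other 24 libraries. Without replicate 4 the corrected difference of Pvalb was 0.508 (adjusted p = 8e-05). Gad1 stood at 513.1, 515.6, 567.3, 547.3 and 552.8 CPM, all above the 24 month libraries. Its difference from 2 months was 0.186 (adjusted p = 0.00118), and 0.356 (1.51e-05) with the correction. The difference from 24 months was 0.118 ± 0.045 (adjusted p = 0.0299), and 0.275 ± 0.056 (adjusted p = 0.000321) with the correction. Without the correction that call of Gad1 was lost when any 1 of 11 libraries was left out (adjusted p of 0.0504 to 0.0944), with no filter on low counts (0.181) and with only the 2 ages in the fit (0.0688).

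Reln at 30 months stood at 131.2, 118.4, 147.5, 130.7 and 95.25 CPM, the widest spread of any age for this gene. Its difference from 2 months was -0.166 ± 0.071 SE (adjusted p = 0.0472), and -0.227 ± 0.074 (adjusted p = 0.0135) with the correction. Without the correction the call was lost without replicate 3, 4 or 5 of 2 months or replicate 2 or 5 of 30 months. It was also lost with total counts alone (-0.105, adjusted p = 0.206), with only the 2 ages in the fit (-0.144, 0.264), with RLE size factors (0.0554), with DESeq2 (0.0547) and with no filter on low counts (0.0505). Without replicate 5 of 30 months, the lowest, the value was -0.0853 (adjusted p = 0.144). The uncorrected call of Cort against 24 months was also lost without replicate 5 of 30 months (0.36, adjusted p = 0.0784) and with only the 2 ages in the fit (0.0693). Calb2 did not pass against 2 months (0.245, adjusted p = 0.118, and 0.081, adjusted p = 0.661, with the correction), and it passed uncorrected without replicate 3 of 30 months (0.339, adjusted p = 0.0285).

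Replicate 1, the 30 month library with a GC gap like that of the younger libraries, gave another picture. With it as the only library of 30 months, assumed to vary like the others, Vip alone was called, with a difference of -0.349 ± 0.108 SE from 2 months (adjusted p = 0.0415, with 8.53% of all genes called) and of -0.388 ± 0.107 from 24 months (adjusted p = 0.0361, with 3.85% called). Pvalb was then 0.086 above 2 months (95% interval -0.044 to 0.217) and -0.076 from 24 months, and Sst was 0.004 above 2 months. The values of Sst, Npy, Cort, Pvalb and Gad1 at 30 months therefore rest on replicates 2 to 5, in which GC content and age cannot be told apart for a gene. The correction lowered the link to GC content and did not remove it in every library. Across the 10 genes, Pearson's r between GC content and the corrected log2 ratio was 0.6, 0.28, 0.09 and 0.42 in replicates 2 to 5.

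Between libraries of the same age the 10 genes did not rise and fall as 1 group. With age means removed over the 20 younger libraries, 21 of the 45 pairs had an r above 0, and the median r was -0.044. Of the 45 pairs, 1 passed a permutation test within ages adjusted over all pairs. Vip and Calb2 varied in opposite directions, with r = -0.831 (p = 2e-05, adjusted p = 0.0009) and Spearman's rho = -0.821 (p = 6e-05, adjusted p = 0.0027). Leaving out the 2 libraries farthest from the median of Vip gave r = -0.804, and r was -0.809 with the GC correction and -0.836 with RLE size factors. Some other pairs, in both directions, had an unadjusted permutation p under 0.05 and did not pass after adjustment. Among them by Spearman's rho were Vip with Npy (0.522, p = 0.016) and Npy with Calb2 (-0.591, p = 0.00987). Weaker links between the 10 genes are therefore undecided with 20 libraries. Within 1 age the 5 libraries are too few for a value, and the labels name no batch. At the ends stood replicate 1 of 9 months, with 28.14 CPM of Vip and 80.7 CPM of Calb2, and replicate 1 of 2 months, with 38.7 and 54.43 CPM. The former also had the highest sum of thalamus markers among the younger libraries, 684 CPM, and a choroid plexus sum of 55.14 CPM against at least 447.4 CPM in the others; the part of dissection was not tested.

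**Figure D4:**
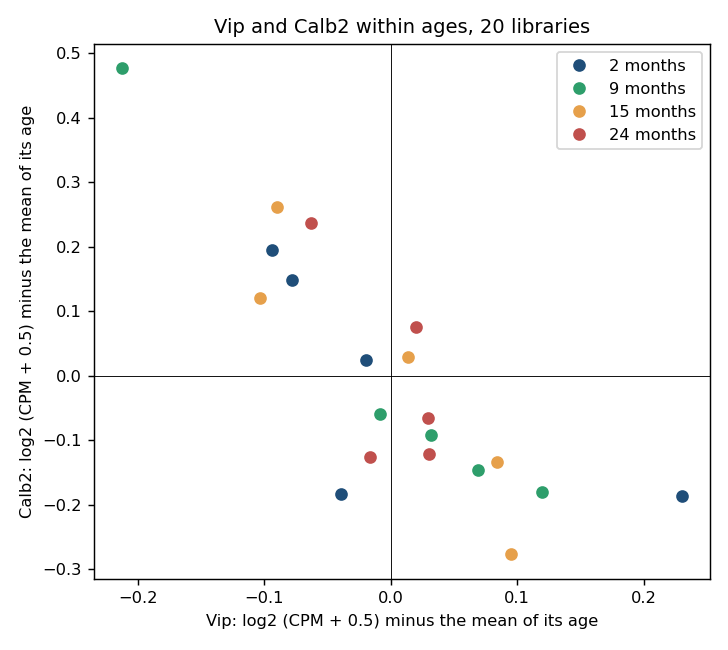
Log2 levels of Vip (horizontal axis) and Calb2 (vertical axis) in the 20 younger libraries, each relative to the mean of its age, coloured by age. Libraries with more Vip have less Calb2 in a single band, with r = -0.831.

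The genes whose profile over the 20 libraries was most like that of each of the 10 were named by Pearson's r of log2 CPM among 12727 genes, as a description without a test. Libraries share their age, depth and GC gap, which these values include. For Sst they were Cdc37 (0.911), Tomm40 (0.894) and Ramp1 (0.889), and for Npy Pmepa1 (0.87), Ptprn (0.867) and Srm (0.86). For Cort they were Cltb (0.821), Spindoc (0.775) and Mnt (0.768), and for Vip Plekhg5 (0.762), Pde4c (0.755) and Serpinb8 (0.745). Crh was the least matched, with Rpf1 (0.711), Inhba (0.663) and Bdnf (0.651), the gene of a neurotrophin. Pvalb was nearest to Pink1 (0.846) and Frmd8 (0.821), and Reln to Epha6 (0.917), Htt (0.915) and Pde4d (0.87). Calb2 was nearest to Grb10 (0.898), Lrig1 (0.875) and Unc119 (0.873). Gad1 was nearest to Tac1 (0.82), a peptide gene of striatal spiny neurons, Gcnt1 (0.819) and Sft2d2 (0.804), and Gad2 to Usp29 (0.81), Dzip3 (0.788) and Glud1 (0.76). No member of the 10 shared a nearest gene with another.

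Genes of the same pathways were read from the fit of the 20 younger libraries, without the GC correction and without the alternatives run for the 10 genes. GABA is loaded into vesicles by Slc32a1, taken up by the Slc6a transporters and broken down by Abat and Aldh5a1. Of these 7 genes 2 passed the test for any difference, against 45.3% of all genes, Slc32a1 (adjusted p = 0.00118) and Aldh5a1 (0.0227). Slc32a1 fell from 9 to 15 months (-0.195, adjusted p = 0.00217) and rose from 15 to 24 months (0.128, adjusted p = 0.0191). These were the directions of Sst and Npy, whose rises lost their calls with the GC correction. Between 24 and 2 months edgeR called 0 of the 7, with 2 at an unadjusted p under 0.05.

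Of 17 transcription factors of the interneuron lineage 4 passed the test for any difference, against 45.3% of all genes. Satb1, Maf and Prox1 were among them. Between 24 and 2 months 1 of the 17 was higher and 1 lower (22.8% of all genes). The lower one was Satb1, a factor of Sst and Pvalb cells (-0.151, adjusted p = 0.0168). The lineage factors Lhx6 and Sox6 of the Sst and Pvalb cells did not pass, with differences of 0.057 and -0.012 between 24 and 2 months.

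Among 24 further peptides and class markers 18 passed the test for any difference (45.3% of all genes), and between 24 and 2 months 5 were higher and 5 lower (22.8% of all genes in either direction). The 4 with the smallest p were Kcnc2, a potassium channel of fast-spiking cells, Erbb4, the neuregulin receptor of interneurons, Ndnf, a marker of neurogliaform cells, and Calb1, the gene of calbindin. Ndnf (-0.288, adjusted p = 0.000383) and Calb1 (-0.16, adjusted p = 0.000178) fell between 2 and 24 months. Erbb4 fell between 15 and 24 months (-0.226, adjusted p = 3.71e-05), as did Kcnc2 (-0.111, adjusted p = 0.00154). Kcnc2 came down from a mid-life high, with 149 to 152 CPM at 2 months, 161 to 172 CPM at 15 months and 151 to 159 CPM at 24 months. Pvalb rose between 15 and 24 months, a call lost without some single libraries, as given above.

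Of 15 receptors of these peptides and of reelin 6 passed the test for any difference, under the 45.3% of all genes, and 3 were called between 24 and 2 months, near the 22.8% of all genes. These 3 were lower. The median difference of the 15 was -0.079, against 0.002 for all genes. Vldlr, a receptor of reelin, was lower at 24 than at 2 months (-0.225, adjusted p = 1.94e-06), as was Reln. The courses differed. Vldlr stood at 133 to 139 CPM at 2 months and already lower at 9 months, at 122 to 126 CPM, where Reln still overlapped its 2 month level. At 24 months Vldlr stood at 110 to 121 CPM. Dab1, the adaptor that carries the reelin signal into the cell, fell from 15 to 24 months (-0.12, adjusted p = 0.00218). Sstr4, a somatostatin receptor, was lower at 24 than at 2 months (-0.211, adjusted p = 0.0289), and Npy2r, a receptor of neuropeptide Y, was higher at 15 than at 9 months (0.195, adjusted p = 0.0357) and lower at 24 than at 15 months (-0.179, adjusted p = 0.0286). The Npy2r changes ran opposite to those of Npy, whose rise from 15 to 24 months lost its call with the GC correction.

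Of 11 genes of peptide processing and dense-core vesicles 8 passed the test for any difference (45.3% of all genes), and 5 were higher and 0 lower between 24 and 2 months (22.8% of all genes in either direction). The granins Chga and Scg3, and the convertase partners Pcsk1n and Scg5, had the smallest p. Between 24 and 2 months Pcsk1n rose by 0.288 (adjusted p = 0.00219), Scg5 by 0.131 (adjusted p = 0.00107) and Scg3 by 0.093 (adjusted p = 0.0166). Chga rose from 15 to 24 months (0.262, adjusted p = 7.06e-06). Pcsk1n fell from 9 to 15 months (-0.341, adjusted p = 0.00168) and rose after it (0.282, adjusted p = 0.00261). Sst, Npy and Cort also rose from 15 to 24 months, by calls that were lost with the GC correction. The part of the GC gap, which differed between these ages, in the values of Chga and Pcsk1n was not tested.

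**Figure D5:**
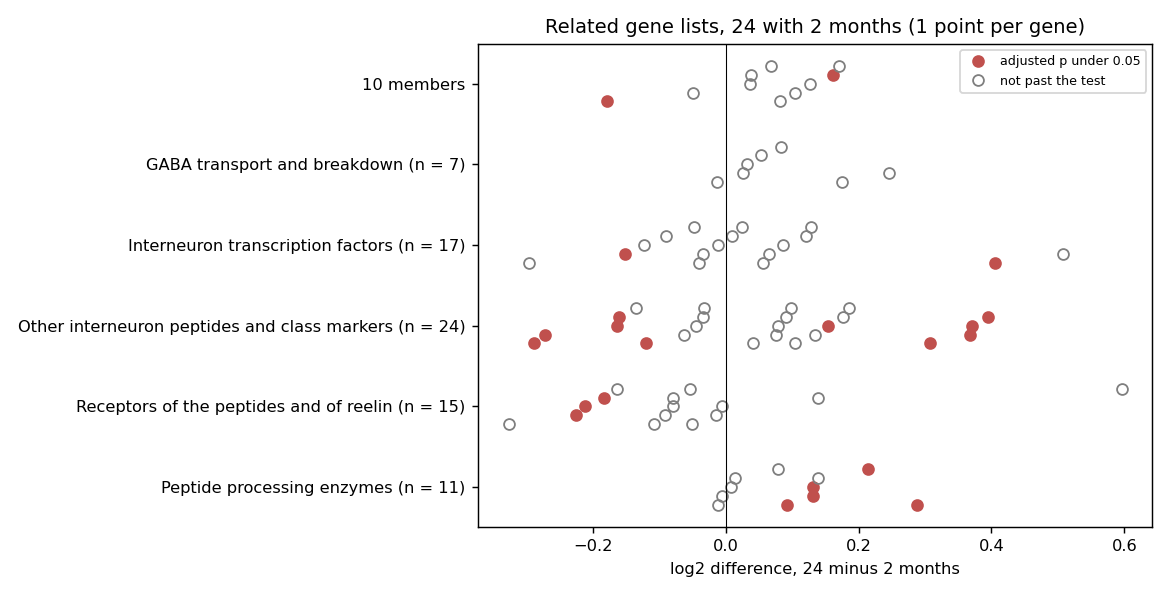
Log2 difference between 24 and 2 months (horizontal axis) of every tested gene in the 10 and in 5 related lists, 1 point per gene, from the fit of the 20 younger libraries. Filled red points have an adjusted p under 0.05. In the receptor list the 3 called genes lie left of 0, and in the peptide processing list the 5 called genes lie right of it.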

How the data were processed

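Counts per Ensembl gene were used as the authors deposited them. Per the submitters' processing notes the tools were CASAVA 1.7, STAR 2.4.1d and featureCounts 1.4.6-p4, with build GRCm38; counting settings and annotation release are not given in the sources used here. The deposited RPKM values were not used. Of 47729 genes, 47310 matched GENCODE M21, which gave symbols, coordinates, lengths and GC content.

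Libraries held 17800113 to 31261121 counts. Replicates differed by a chi-square per degree of freedom of 1.55 to 6.97 at the younger ages and 4.97 to 146 at 30 months. Replicate libraries thus differed by more than counting error, which need not hold for a single gene. Within the younger ages the coefficient of variation was 1.52% to 5.05% for Pvalb and 1.76% to 5.15% for Sst. For Vip it was 2.78% to 9.81% and for Npy 3.41% to 5.98%. The lowest of these values were no larger than counting error alone gives at the counts of these genes. Counting error thus entered their precision at some ages, besides that of Cort and Crh. Counts were filtered with filterByExpr, scaled with TMM and tested with edgeR 4.0.16 (robust quasi-likelihood, R 4.3.3), in 1 fit of the 20 libraries of 2 to 24 months (17472 genes) and 1 of all 25 (17799 genes) for comparisons with 30 months. p-values are two-sided and adjusted by Benjamini-Hochberg over all genes tested, at 0.05. The GC correction subtracts, per library, a loess smooth (span 0.3) of the log2 ratio to the younger mean on GC content. The median log2 difference of all genes was between -0.0072 and 0.0149 with and without it. Age groups come from the labels, and replicate numbers follow sample order and pair nothing.

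All 10 genes are named. From each related list up to 4 genes with the smallest p in the test for any difference are named among those passing, and for each of the 10 the 3 genes most correlated with it. Of the genes these rules pick, 2 are not reported here. Lhx6, Sox6 and single region markers were named beyond this rule after their values were seen. The genes, the lists and the choice to fit 30 months apart were made with earlier results of these data known. Alternatives were other scalings, filters, DESeq2 1.42.0, limma-voom (limma 3.58.1), the GC correction, other sets of libraries and leaving out each library. The test was first checked on simulated counts with known changes between 24 and 2 months. It recovered 40.3% of the changes of 1.25-fold, 91% of 1.5-fold and 98.5% of 2-fold, with 8 false calls among 17301 genes. The simulation gave all genes 1 spread and held no GC effect, so these shares need not hold for the 10 genes. A gene that did not pass may therefore still differ by a small amount.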

Additional observations from a re-analysis of the deposited data

Results flagged for a closer look

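In 5 of the 50 groups of 5 libraries (10 genes at 5 ages), 1 library stood apart from the other 4 by Dixon's criterion; chance gives this in about 1 in 20 groups. Vip was at 38.7 CPM in replicate 1 of 2 months, with the others between 30.8 and 32.46 CPM. Gad1 was at 530.7 CPM in that same library, with the others between 448.7 and 472.2 CPM. Gad1 was at 537.0 CPM in replicate 1 of 9 months, with the others between 468.3 and 483.8 CPM. Calb2 was at 80.7 CPM in that library, with the others between 51.03 and 55.53 CPM. Pvalb was at 54.31 CPM in replicate 5 of 2 months, with the others between 48.96 and 49.62 CPM.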

How the results depend on the processing

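Of 2800 recomputed values of single genes, 2703 kept their side of the threshold without a called value changing sign, 85 lost the call, 8 gained one and 4 reversed. Among the 2703, 74 were past the test under neither setting and differed in sign. These 4 reversals came without replicates 2 to 5 of 30 months: Cort against 2 months (-0.125), and Sst (-0.0797), Cort (-0.231) and Pvalb (-0.0765) against 24 months, none of them past the test. That setting left 1 gene called against 2 months and 1 against 24 months. With the GC correction the number of genes called was 1 between 15 and 9 months, 2 between 24 and 15 months, 3 for any difference, 5 between 30 and 2 months and 4 between 30 and 24 months. With all 25 libraries in one fit it was 0 for 15 with 2, 24 with 2, 15 with 9, 24 with 9 and 24 with 15 months, any difference and the trend by edgeR, with 0 to 2 genes at an unadjusted p under 0.05 in each. In fits of only the 2 ages compared, an alternative chosen after seeing the data, 15 with 2 months gave 2. With the GC correction and without 1 library of 30 months, also chosen after seeing the data, the numbers against 2 and 24 months were 7 and 6 without replicate 1, 6 and 4 without replicate 2, 5 and 4 without replicate 3, 6 and 6 without replicate 4 and 5 and 4 without replicate 5. Leaving out 1 library at a time gave 0 to 1 genes for 9 with 2 months, 1 to 2 for 15 with 2, 2 to 2 for 15 with 9, 4 to 5 for 24 with 15, 2 to 3 for 24 with 2 and for 24 with 9, 4 to 7 for any difference, 2 to 2 for the trend, 7 to 9 for 30 with 2 and 5 to 7 for 30 with 24 months. The cause of these changes was not tested, and leaving out a library also lowers the number of libraries. No paired analysis was possible because the labels link no libraries across ages and replicate numbers are only names. Depth limits Cort most, with as few as 21 counts in a library, and then Crh, with as few as 61.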
